A study of Mus musculus with 32 samples.

Results

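NF-κB subunits and feedback genes were a group of 10 genes chosen by name: Nfkb1, Nfkb2, Rela, Relb, Nfkbia, Nfkbie, Tnfaip3, Tnfaip2, Birc3 and Bcl3. All 10 were found among the 12451 genes of the count table by their Ensembl identifiers. The table came from YUMM3.3, a Braf-mutant mouse melanoma cell line grown in 6-well plates, in which mRNA was measured by BRB-seq, a method that adds a barcode to the cDNA of each well, pools the wells and sequences the 3′ ends of transcripts. The 32 wells fell into 8 groups of 4. Cells were left untreated or received IFN-γ at 20 ng/ml, Activin-A at 40 ng/ml or the combination, and were collected after 4 hrs or 12 hrs. IFN-γ is the cytokine that signals through JAK kinases, and Activin-A is a member of the TGF-β family that activates Smad transcription factors. The labels separate the wells but name no separate cultures, so p-values measure the spread between wells of this cell line, and less RNA per cell cannot be told apart from fewer cells with a transcript.

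NF-κB is a family of dimeric transcription factors that inhibitor proteins of the IκB class hold in the cytoplasm. Stimulation of TNF, interleukin or Toll-like receptors activates a kinase complex that marks the inhibitors for degradation, and the freed dimers enter the nucleus. Several of their own targets, among them IκBα and the ubiquitin-editing enzyme encoded by Tnfaip3, switch the pathway off again, so that mRNA of these genes is widely read as a trace of NF-κB activity.

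Sequences upstream of the genes are shown first because κB motifs, to which NF-κB dimers bind, mark many genes of this feedback loop. RefSeq windows of 300 bases, 250 before to 50 after a transcription start of build GRCm38.p6, were matched by symbol for 8 of the 10 genes and held 11 windows. Nfkb1 and Relb were not matched. The submitters' processing notes name GRCm39 for the counts, so these positions belong to the RefSeq table and not to the counts. Both strands were searched for the κB motif, the IFN-γ-activated sequence (GAS) motif TTCNNNGAA, the letters GAAANNGAA from the interferon-stimulated response element, and the Smad-binding letters CAGACA. The Bcl3 window is on the minus strand at chr7:19822706-19823005, the Nfkbia window on the minus strand at chr12:55492598-55492897, and the first Nfkb2 window on the plus strand at chr19:46304487-46304786. They are shown because Bcl3 had the largest called response to IFN-γ among these genes, Nfkbia is the best known feedback target, and Nfkb2 was the single gene called in the averaged comparison of Activin-A. Capitals mark κB matches, and in Nfkbia also the GAAANNGAA match (read on the opposite strand as TTCTTTTTC) and in Nfkb2 also the GAS match (TTCCCCGAA).
Bcl3: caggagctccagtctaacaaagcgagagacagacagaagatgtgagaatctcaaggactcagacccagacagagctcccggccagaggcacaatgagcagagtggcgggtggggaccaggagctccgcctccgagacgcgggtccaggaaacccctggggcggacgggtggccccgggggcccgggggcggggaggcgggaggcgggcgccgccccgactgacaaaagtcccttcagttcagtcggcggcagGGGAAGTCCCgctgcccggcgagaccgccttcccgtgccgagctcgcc
Nfkbia: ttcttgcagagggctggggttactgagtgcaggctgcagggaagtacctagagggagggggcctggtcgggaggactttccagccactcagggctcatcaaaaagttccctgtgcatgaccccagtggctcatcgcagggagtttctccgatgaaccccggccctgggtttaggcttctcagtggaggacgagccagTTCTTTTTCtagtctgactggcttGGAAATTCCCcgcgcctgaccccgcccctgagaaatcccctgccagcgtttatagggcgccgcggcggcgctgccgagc
Nfkb2: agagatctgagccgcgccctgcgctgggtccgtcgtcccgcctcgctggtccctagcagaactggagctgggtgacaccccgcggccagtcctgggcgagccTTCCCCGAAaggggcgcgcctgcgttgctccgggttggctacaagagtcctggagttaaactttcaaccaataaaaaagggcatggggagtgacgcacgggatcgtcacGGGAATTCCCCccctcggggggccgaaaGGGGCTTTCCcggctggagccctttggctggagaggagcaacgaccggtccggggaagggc

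Of the 8 genes with a window, 6 held a κB motif (Nfkb2, Nfkbia, Nfkbie, Tnfaip3, Tnfaip2 and Bcl3), while Rela and Birc3 held none. Counted by window, 8 of their 11 held it, against 8.46% of all 32851 windows of that length, where the later Nfkb2 windows overlap each other and both count the same match. In the first Nfkb2 window 3 κB matches were counted, 2 of which overlap in a single run of capitals. A GAS motif was found only in Nfkb2 and the interferon-type letters only in Nfkbia, against 8.3% and 8.56% of all windows. CAGACA, held by 21% of all windows, occurred 2 times in the Bcl3 window and in no other window of these genes. A match describes letters and not a bound site.

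Across the 32 wells the total count ranged from 654539 to 1455074, and the detection floor of 3 counts equalled 2.06 to 4.58 CPM (counts scaled to a common library size by the TMM method). This floor covers counting error only. Pairs of wells of the same group differed by a chi-square per gene between 1.16 and 1.54, except that replicate 1 of Activin-A at 4 hrs differed from its 3 partners by 2.45 to 2.89, so values of the 10 genes that include that well and passed the filter are also given without it. All 6 genes taken as a check of IFN-γ treatment rose in every comparison with IFN-γ against without it, while of the 6 taken as a check of Activin-A 6 rose with Activin-A alone and 5 on top of IFN-γ at 4 hrs, and 4 and 3 at 12 hrs. All 10 melanocyte lineage markers were in the table. After removal of low counts 9 were tested at 4 hrs and 7 at 12 hrs. Pmel, Tyrp1, Gpnmb, Dct and Mlana had group means between 49.98 and 139.9 CPM, Sox10 and Tyr between 10.8 and 17.9 CPM, Mitf and S100b between 5.65 and 10.2 CPM and Cdh19 of at most 3.44 CPM, whereas of 11 markers of leukocytes, endothelium and keratinocytes 8 were not in the table, and Cd68, Ptprc and Csf1r averaged at most 7.75, 3 and 1.5 counts in any group.

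The depth behind the 10 genes differed widely. Counts per well ranged from 182 to 456 for Tnfaip2, from 70 to 187 for Nfkb1, from 75 to 230 for Rela, from 35 to 113 for Nfkb2 and from 33 to 98 for Nfkbia. Relb had 5 to 51 counts and Birc3 3 to 15. Bcl3, Nfkbie and Tnfaip3 had at most 14, 14 and 8 counts, and 10, 6 and 10 of their 32 wells were at or under the floor. Changes in the last 3 genes were therefore measured with intervals several times wider than those of Tnfaip2. In every gene, neighbouring groups in the order of mean CPM overlapped between wells. The highest and the lowest group did not overlap for Nfkb1, Nfkb2, Tnfaip3, Tnfaip2, Birc3 and Bcl3, and did for Rela, Relb, Nfkbia and Nfkbie. These groups were picked from 8 by their means, which favours separation without any response. The share of all genes with such a separation was not determined, so this split describes the wells and tests nothing.

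**Figure D1:**
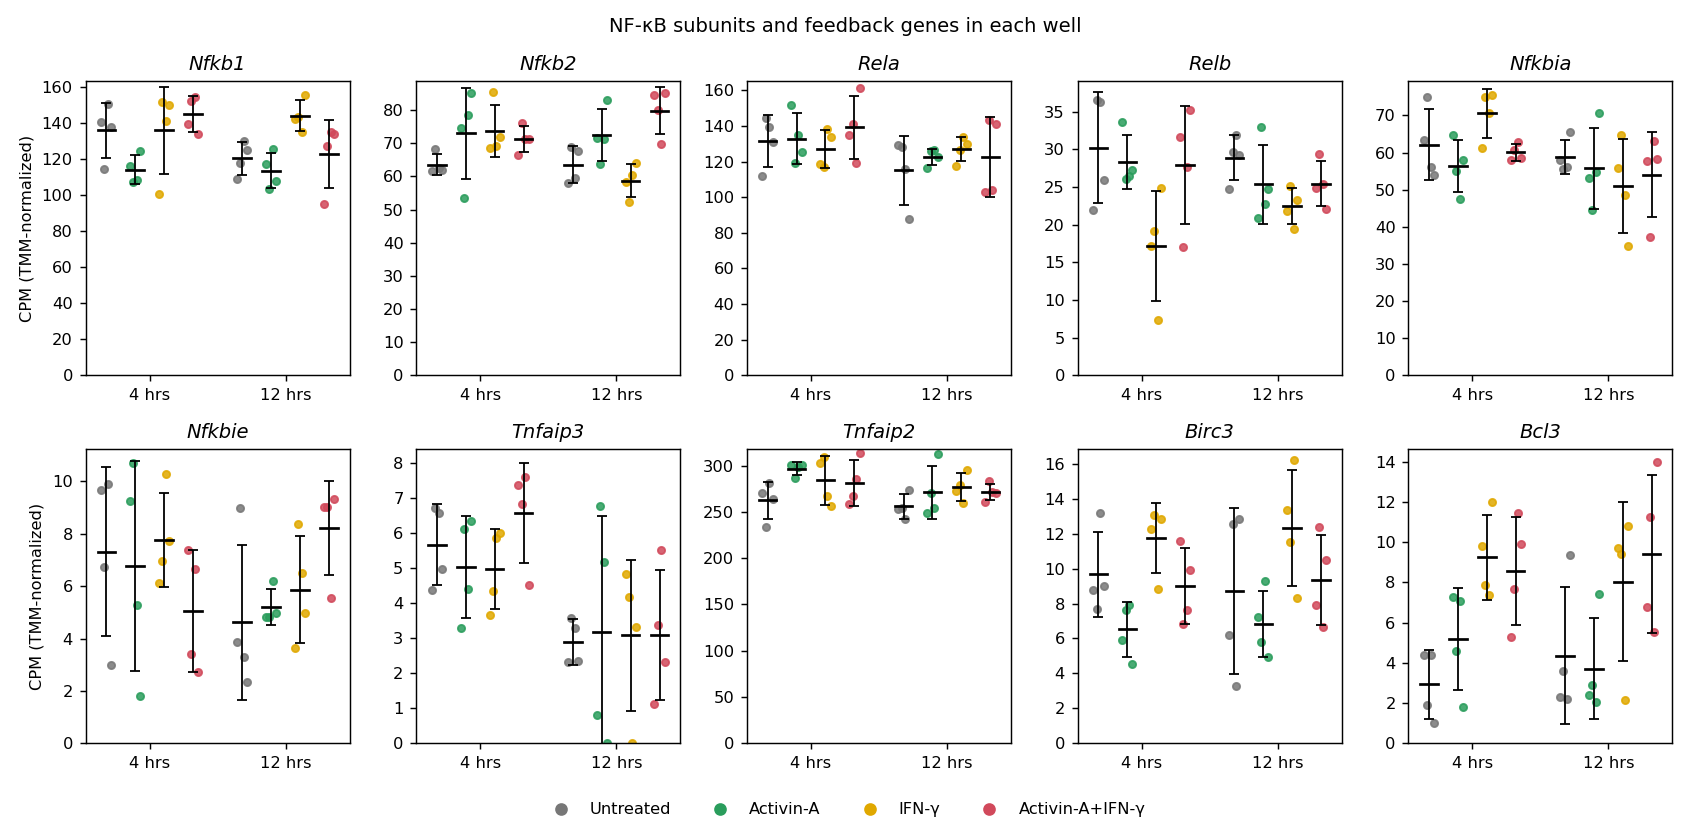
CPM of each gene in each of the 32 wells, at 4 hrs and 12 hrs, coloured by treatment. Points are wells, bars are the mean and SD of 4 wells, cut at 0, and each panel has its own axis from 0. The mean of Bcl3 is higher with IFN-γ at both times, while for Rela and Nfkbia even the highest and lowest groups overlap.

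IFN-γ was first compared with untreated cells at each time. Bcl3, which encodes an atypical nuclear IκB protein that joins NF-κB dimers on DNA and can activate transcription, was the single gene of the 10 called with IFN-γ alone at 4 hrs. Untreated wells held 4.40, 1.92, 4.39 and 0.999 CPM of Bcl3, from 5, 2, 4 and 1 counts. Wells with IFN-γ held 9.80, 7.85, 7.35 and 12.0 CPM, from 8, 9, 5 and 14 counts. Every IFN-γ well was above every untreated well, and the mean went from 2.93 ± 1.73 to 9.25 ± 2.12 CPM (SD, n = 4 wells). edgeR's quasi-likelihood test gave a log2 fold change of 1.65 ± 0.47 (SE), a 3.15-fold rise with a 95% interval from 1.64 to 6.04, and a Benjamini-Hochberg adjusted p of 0.0197. Of all 9137 genes tested, 5.06% were called in this comparison, beside 1 of the 9 tested NF-κB genes. Bcl3 passed the filter on low counts through the groups in which it was high, and its adjusted p without that filter was 0.0185.

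The call on Bcl3 at 4 hrs rested on few counts. It was lost with DESeq2 (adjusted p of 0.106), with only the groups compared or at least 10 counts in every well, where the filter removed the gene, when replicate 2 (0.0856) or replicate 4 (0.112) of the untreated wells was left out, and when replicate 4 of IFN-γ was left out (0.122), while its log2 fold change stayed between 1.38 and 1.94.

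At 12 hrs Bcl3 was removed by the filter. Untreated wells held 2.32, 3.59, 2.20 and 9.35 CPM and wells with IFN-γ 9.70, 9.41, 2.16 and 10.8 CPM. The ranges overlapped, with 1 untreated well at 9.35 CPM and 1 IFN-γ well at 2.16 CPM. The log2 fold change without the filter was 0.97 (95% interval 0.08 to 1.85, adjusted p of 0.244).

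Nfkb1, whose product is the precursor of a DNA-binding subunit of the canonical dimer, had a log2 fold change of 0.03 between IFN-γ and untreated wells at 4 hrs (95% interval -0.19 to 0.24). At 12 hrs, the untreated wells held 109, 117, 130 and 125 CPM of Nfkb1. The wells with IFN-γ held 142, 143, 135 and 155 CPM, all above the untreated ones. The 1.21-fold difference (log2 fold change 0.27 ± 0.10) had an adjusted p of 0.0700, with a range from 0.0461, when only these 2 groups were fitted, to 0.323 with DESeq2. None of the 7 NF-κB genes tested at 12 hrs was called by edgeR or by DESeq2, 1 had an unadjusted p under 0.05, and 9.25% of all 8971 genes were called by edgeR.

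Relb, the activating subunit of the non-canonical pathway, had lower means with IFN-γ at both times. At 4 hrs untreated wells held 22.0, 36.6, 36.2 and 26.0 CPM. Wells with IFN-γ held 17.1, 19.2, 7.35 and 24.9 CPM, so that the groups overlapped and the well at 7.35 CPM rested on 5 counts. The log2 fold change was -0.70 (95% interval -1.18 to -0.21) and did not pass, with an adjusted p of 0.0956. It passed without replicate 4 of IFN-γ (0.0301) or replicate 1 of untreated cells (0.0419), and reached 0.345 without replicate 3 of IFN-γ. At 12 hrs the log2 fold change of Relb was -0.34 (95% interval -0.76 to 0.07).

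Of the remaining subunits, Nfkb2, the precursor of the partner of RelB, was higher in all 4 IFN-γ wells at 4 hrs than in any untreated well (68.6, 85.4, 69.1 and 72.0 against 61.5, 68.3, 62.6 and 61.9 CPM), yet with a log2 fold change of 0.24 and an adjusted p of 0.445. At 12 hrs its difference was -0.10. Rela, the main activating subunit, had log2 fold changes of -0.04 and 0.12, and the 95% intervals excluded a change of more than 0.33 in either direction at both times.

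Among the inhibitors and feedback genes, Nfkbia, which encodes IκBα, was at 61.2 to 75.4 CPM with IFN-γ at 4 hrs and at 53.9 to 75.0 CPM in untreated wells. Its log2 fold change was 0.20 at 4 hrs (95% interval -0.07 to 0.47) and -0.23 at 12 hrs (95% interval -0.54 to 0.08). Tnfaip2, a gene named for its induction by TNF, differed by 0.13 and 0.12, with 95% intervals that ended at 0.29 and 0.27. Birc3, a ubiquitin ligase that protects cells from death downstream of TNF receptors, had log2 fold changes of 0.34 and 0.47, with adjusted p-values of 0.739 and 0.519. Nfkbie, a further IκB inhibitor, and Tnfaip3 had log2 fold changes of 0.06 and -0.17 at 4 hrs, with 95% intervals from -0.77 to 0.90 and from -1.09 to 0.75, and a change of 1.5-fold in either gene was not detectable at this depth. At 12 hrs, without the filter that removed them, they were at 0.28 and 0.08.

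**Figure D2:**
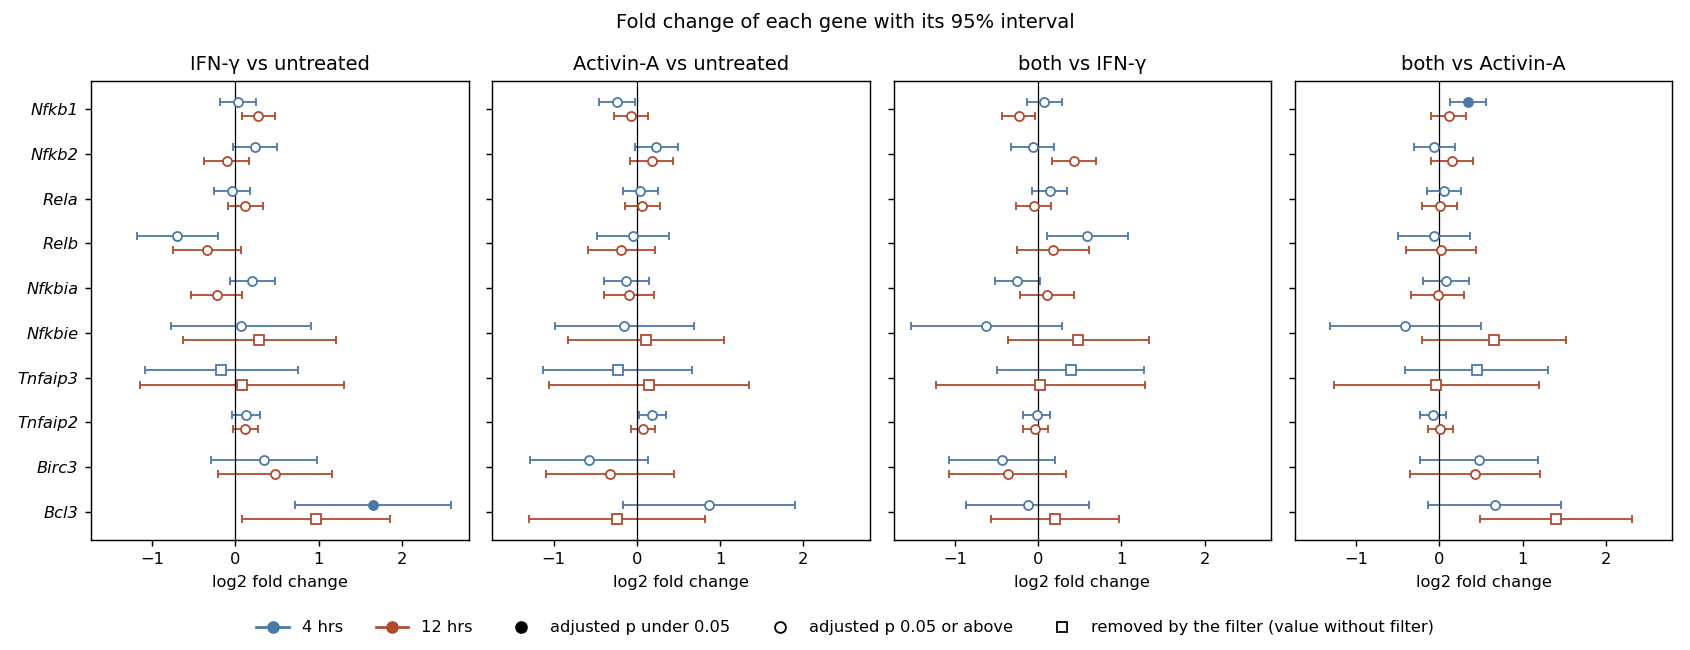
Log2 fold change and 95% interval of each gene in the 4 comparisons, at 4 hrs (blue) and 12 hrs (red). Filled circles had an adjusted p under 0.05, and squares, drawn open whatever their p, are values without the filter for genes removed by it. Bcl3 with IFN-γ at 4 hrs, at 1.65, and Nfkb1 with both factors against Activin-A at 4 hrs, at 0.34, are the filled circles, and the square of Bcl3 with both factors against Activin-A at 12 hrs, at 1.40, had an adjusted p of 0.0394.

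IFN-γ was also compared on top of Activin-A, in wells that share no control with the comparisons above. At 4 hrs Nfkb1 was the single gene called. Wells with Activin-A held 116, 107, 108 and 124 CPM. Wells with both factors held 139, 152, 154 and 134 CPM, again with no overlap. The log2 fold change was 0.34 ± 0.11 (SE), a 1.27-fold rise, with an adjusted p of 0.0400 by edgeR, beside 6.07% of all genes called. Without replicate 1 of Activin-A it was 0.35, with an adjusted p of 0.0486. The call was lost with DESeq2 (0.153), in the fit blocked by replicate number (0.0561), and when any of 5 wells was left out: replicates 2 (0.0858) and 3 (0.110) of Activin-A and replicates 1 (0.0563), 2 (0.134) and 3 (0.124) of both factors.

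Bcl3 in the same wells at 4 hrs was at 7.26, 4.59, 7.05 and 1.81 CPM with Activin-A and at 5.27, 7.69, 11.4 and 9.92 CPM with both factors. The ranges overlapped, and the log2 fold change of 0.66 had an adjusted p of 0.454, or 0.93 and 0.365 without replicate 1 of Activin-A. At 12 hrs the values were 2.41, 2.90, 2.07 and 7.43 CPM with Activin-A and 6.78, 11.3, 5.53 and 14.0 CPM with both. The highest Activin-A well lay inside the range with both factors. Bcl3 was removed by the filter at 12 hrs, and without it the log2 fold change was 1.40 (95% interval 0.49 to 2.32) with an adjusted p of 0.0394, which rose to 0.0515 with all 32 wells in the fit and to 0.213 with DESeq2. Of the 7 genes tested at 12 hrs 0 were called by edgeR or DESeq2 and 0 had an unadjusted p under 0.05, while 9.62% of all genes were called by edgeR. Nfkb1 was at a log2 fold change of 0.11 at 12 hrs.

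The remaining genes were not called on top of Activin-A. At 4 hrs and 12 hrs Nfkb2 was at log2 fold changes of -0.06 and 0.15, Rela at 0.05 and 0.00, and Relb at -0.06 and 0.02. Nfkbia was at 0.08 and -0.02 and Tnfaip2 at -0.08 and 0.01. Birc3 was at 0.48 and 0.43 and Nfkbie at -0.41 and, without the filter, 0.66. Tnfaip3, without the filter at both times, was at 0.45 and -0.04. Without replicate 1 of Activin-A the values of the tested genes at 4 hrs were -0.06 for Nfkb2, 0.13 for Rela, 0.06 for Relb, 0.18 for Nfkbia, -0.07 for Tnfaip2, 0.43 for Birc3 and -0.08 for Nfkbie, and none of these passed.

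Because IFN-γ was given with and without Activin-A at both times, its effect was also averaged over the 4 comparisons in a fit of all 32 wells, 16 with and 16 without the cytokine. This contrast was chosen after the data had been seen. In the 16 wells with IFN-γ Bcl3 ranged from 2.16 to 14.0 CPM with a median of 9.56. In the 16 wells without it the range was 0.999 to 9.35 CPM and the median 3.24. Of the 10 wells at or under the floor, 9 had no IFN-γ. Bcl3 rose 2.25-fold on average (95% interval 1.64 to 3.09, log2 fold change 1.17 ± 0.23 SE), with an adjusted p of 3.74e-05 by edgeR's quasi-likelihood test. As at 4 hrs it passed the filter through wells in which it was high, and without the filter its adjusted p was 1.81e-05. It was called in all 32 fits that left out 1 well each, with log2 fold changes between 1.10 and 1.32, and with DESeq2 (adjusted p of 0.000165). Without replicate 1 of Activin-A at 4 hrs it was at 1.24 (adjusted p of 1.79e-05).

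Nfkb1 was the other gene called in the average over the 4 IFN-γ comparisons. It ranged from 94.9 to 155 CPM with IFN-γ, with a median of 140, and from 104 to 150 CPM without it, with a median of 117. The wells overlapped, and the rise was 1.14-fold (95% interval 1.06 to 1.22, log2 fold change 0.19 ± 0.05 SE, adjusted p of 0.00624). It was called in all 32 fits with 1 well left out and with DESeq2 (0.0219), and without replicate 1 of Activin-A at 4 hrs its adjusted p was 0.00529. In this average 17.0% of all 9332 genes were called, beside 2 of the 8 tested NF-κB genes. Relb, at a log2 fold change of -0.28 (95% interval -0.49 to -0.06, adjusted p of 0.0717), and Birc3, at 0.43 (95% interval 0.08 to 0.77, adjusted p of 0.0823), did not pass. Relb passed when replicate 1 of untreated cells at 4 hrs (0.0357), replicate 4 of IFN-γ at 4 hrs (0.0273) or replicate 4 of both factors at 4 hrs (0.0410) was left out, and reached 0.162 in another such fit. Birc3 passed without replicate 2 (0.0466) or replicate 4 (0.0489) of untreated cells at 12 hrs, and reached 0.151. For Nfkbia the average was 0.00 (95% interval -0.14 to 0.15), for Rela 0.03 (95% interval -0.08 to 0.14) and for Tnfaip2 0.04 (95% interval -0.04 to 0.12). Nfkb2 was at 0.05 and, without the filter, Nfkbie at 0.15 and Tnfaip3 at 0.08. Without replicate 1 of Activin-A at 4 hrs Relb was at -0.24 (adjusted p of 0.129), Birc3 at 0.42 (0.111), Nfkbia at 0.03, Rela at 0.05, Tnfaip2 at 0.04 and Nfkb2 at 0.05.

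**Figure D3:**
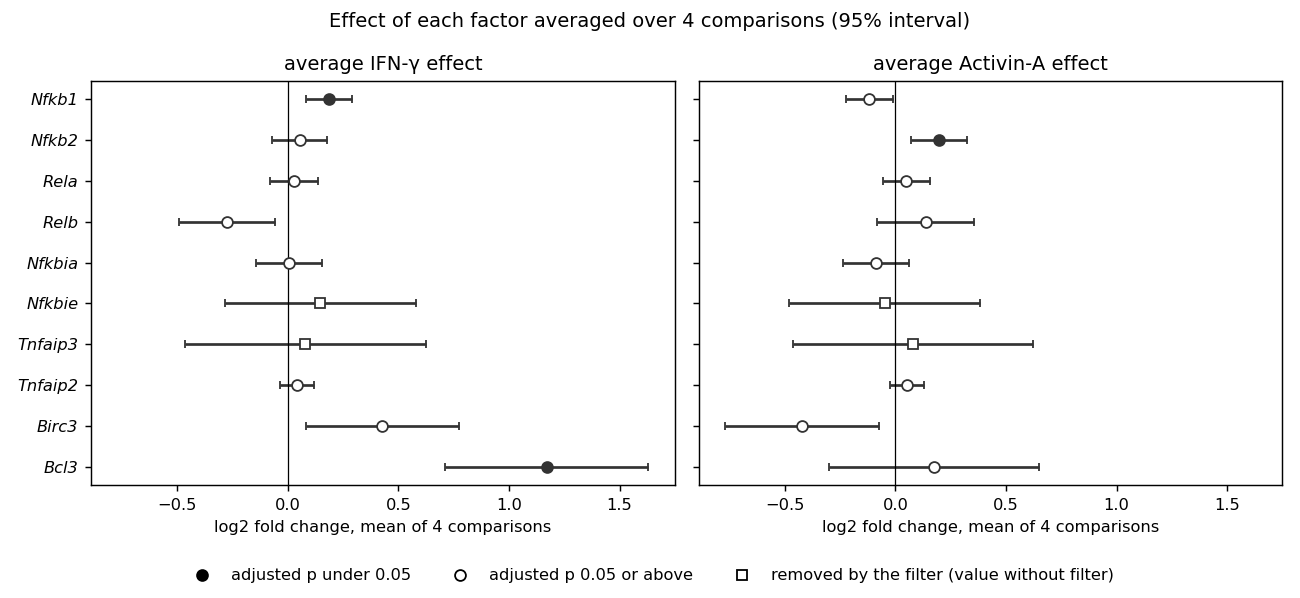
Log2 fold change of each gene averaged over the 4 IFN-γ comparisons (left) and the 4 Activin-A comparisons (right), with 95% intervals. Filled points had an adjusted p under 0.05. Bcl3 at 1.17 and Nfkb1 at 0.19 were called for IFN-γ and Nfkb2 at 0.20 for Activin-A, and squares are genes removed by the filter.

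Activin-A was compared with untreated cells and, on top of IFN-γ, with IFN-γ alone. Against untreated cells, edgeR and DESeq2 called 0 of the 9 tested genes at 4 hrs, where 2 had an unadjusted p under 0.05 and 1.64% of all genes were called by edgeR. At 12 hrs both tools called 0 of the 7 tested genes, 0 had an unadjusted p under 0.05 and 2.41% of all genes were called by edgeR. At 4 hrs Tnfaip2 was at 301, 286, 299 and 301 CPM with Activin-A and at 271, 234, 281 and 264 CPM without. The groups did not overlap, but the 1.14-fold difference had an adjusted p of 0.325, and of 0.428 without replicate 1 of Activin-A. Nfkb1 was at 116, 107, 108 and 124 CPM with Activin-A against 141, 114, 150 and 138 CPM without, a log2 fold change of -0.24 with an adjusted p of 0.378, or -0.25 and 0.414 without that well.

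Of the remaining genes with Activin-A alone, Nfkb2 was at log2 fold changes of 0.24 at 4 hrs and 0.18 at 12 hrs, Rela at 0.04 and 0.06, and Relb at -0.04 and -0.18. Nfkbia was at -0.12 and -0.09 and Birc3 at -0.57 and -0.32. Bcl3 was at 0.86 at 4 hrs (95% interval -0.17 to 1.90) and, without the filter, at -0.24 at 12 hrs. Nfkbie was at -0.15 at 4 hrs and Tnfaip3, without the filter, at -0.23, and at 12 hrs both were tested without the filter, at 0.11 and 0.15. At 12 hrs Nfkb1 and Tnfaip2 were at -0.07 and 0.07. Leaving out replicate 1 of Activin-A at 4 hrs gave 0.24 for Nfkb2, -0.04 for Rela, -0.17 for Relb, -0.23 for Nfkbia, -0.53 for Birc3, 0.59 for Bcl3 and -0.48 for Nfkbie, and none passed. The sign of Rela thus turned with that well.

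On top of IFN-γ, edgeR and DESeq2 called 0 of 9 genes at 4 hrs and 0 of 7 at 12 hrs, with 1 and 2 at an unadjusted p under 0.05, beside 0.810% and 1.03% of all genes called by edgeR. The clearest separation was that of Nfkb2 at 12 hrs. Wells with IFN-γ held 58.2, 52.3, 60.5 and 64.0 CPM, the lowest group of this gene. Wells with both factors held 84.7, 80.0, 69.7 and 85.1 CPM, the highest group, and these ranges did not touch. The log2 fold change was 0.43 ± 0.13 (SE), 1.35-fold, with an adjusted p of 0.103 and a range from 0.0777 to 0.287 over the alternatives. Nfkb1 had the opposite sign in the same wells. It was at 142, 143, 135 and 155 CPM with IFN-γ and at 94.9, 127, 135 and 134 CPM with both factors. These ranges did not overlap either, but the closest wells were at 135.034 CPM with IFN-γ and 134.975 CPM with both factors. For Nfkb1 the log2 fold change was -0.23, with an adjusted p of 0.383. At 4 hrs Relb was at 0.59 (95% interval 0.10 to 1.08, adjusted p of 0.357), the gene with an unadjusted p under 0.05. The others at 4 hrs and 12 hrs were Rela at 0.14 and -0.05, Nfkbia at -0.25 and 0.11, Tnfaip2 at -0.02 and -0.03 and Birc3 at -0.43 and -0.36. Nfkb1 and Nfkb2 were at 0.07 and -0.06 at 4 hrs, and Relb at 0.18 at 12 hrs. Bcl3 was at -0.13 and Nfkbie at -0.62 at 4 hrs, and at 0.20 and 0.48 without the filter at 12 hrs. Tnfaip3, without the filter, was at 0.39 and 0.03.

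Averaged over its 4 comparisons, a contrast also chosen after the data had been seen, Activin-A gave a call for 1 of the 8 tested genes, Nfkb2. Nfkb2 ranged from 53.6 to 85.3 CPM with Activin-A, with a median of 73.0, and from 52.3 to 85.4 CPM without, with a median of 63.3. The wells overlapped over nearly their whole range. The rise was 1.15-fold (95% interval 1.05 to 1.25, log2 fold change 0.20 ± 0.06 SE), with an adjusted p of 0.0404 by edgeR and of 0.0482 without replicate 1 of Activin-A at 4 hrs, beside 6.46% of all genes called. It was called in 17 of the 32 fits with 1 well left out, and was lost without the filter (0.0613) and with DESeq2 (0.139). Birc3, at -0.42 (95% interval -0.77 to -0.08, adjusted p of 0.157), and Nfkb1, at -0.12 (95% interval -0.22 to -0.01, adjusted p of 0.207), did not pass, nor without replicate 1 of Activin-A at 4 hrs (0.202 and 0.200). The averages were 0.05 for Rela, 0.14 for Relb, -0.09 for Nfkbia, 0.05 for Tnfaip2, 0.17 for Bcl3 and, without the filter, -0.05 for Nfkbie and 0.08 for Tnfaip3. Without that well they were 0.03 for Rela, 0.11 for Relb, -0.11 for Nfkbia, 0.05 for Tnfaip2 and 0.11 for Bcl3. Birc3 ranged from 4.53 to 12.4 CPM with Activin-A and from 3.3 to 16.2 CPM without it. Reads shared between Birc3 and its paralogue Birc2 were not assessed.

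Whether the 2 factors acted on each other was tested as an interaction, the effect of Activin-A with IFN-γ minus its effect without. At 4 hrs, edgeR called 0 of the 9 genes and 0% of all genes, with 1 of the 9 at an unadjusted p under 0.05, 505 of all genes at that level and 0 genes called by DESeq2. The largest values were those of Bcl3 at -0.99 (95% interval -2.26 to 0.27) and Relb at 0.64 (95% interval -0.02 to 1.29). Nfkb1, at 0.31 (95% interval 0.01 to 0.62, adjusted p of 0.890), was the gene with the unadjusted p under 0.05. Without replicate 1 of Activin-A the order of the first pair reversed, with Relb at 0.76 and Bcl3 at -0.72, while Nfkb1 was at 0.33, and none passed. The other values at 4 hrs were -0.30 for Nfkb2, 0.09 for Rela, -0.12 for Nfkbia, -0.47 for Nfkbie, -0.20 for Tnfaip2, 0.14 for Birc3 and, without the filter, 0.62 for Tnfaip3. Without that well they were -0.30 for Nfkb2, 0.19 for Rela, -0.02 for Nfkbia, -0.14 for Nfkbie, -0.19 for Tnfaip2 and 0.10 for Birc3. At 12 hrs edgeR and DESeq2 called 0 of 7 genes, 0 had an unadjusted p under 0.05, and 0.0111% of all genes, a single gene, were called by edgeR. The values at 12 hrs were -0.16 for Nfkb1, 0.25 for Nfkb2, -0.12 for Rela, 0.36 for Relb, 0.21 for Nfkbia, -0.11 for Tnfaip2 and -0.04 for Birc3. Without the filter Bcl3 was at 0.44, Nfkbie at 0.37 and Tnfaip3 at -0.12.

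Time was compared in the fit of all 32 wells. Untreated cells at 12 hrs against 4 hrs gave 0 of 8 genes called by edgeR or DESeq2 and 0 at an unadjusted p under 0.05, beside 4.90% of all genes called by edgeR. Tnfaip3, which was removed by the filter, was at 4.40, 6.74, 6.59 and 5.0 CPM at 4 hrs and at 2.32, 3.59, 3.3 and 2.34 CPM at 12 hrs. All 12 hrs wells lay below all 4 hrs wells, on 2 to 4 counts against 5 to 7. Without the filter its log2 fold change was -0.94 (95% interval -1.99 to 0.11, adjusted p of 0.415). The other genes in untreated cells were at -0.18 for Nfkb1, -0.01 for Nfkb2, -0.17 for Rela, -0.06 for Relb, -0.09 for Nfkbia, -0.04 for Tnfaip2, -0.14 for Birc3, 0.46 for Bcl3 and, without the filter, -0.60 for Nfkbie. The effect of IFN-γ at 12 hrs minus that at 4 hrs gave 0 of 8 genes with either tool, 0 at an unadjusted p under 0.05 and 0.579% of all genes with edgeR. The same contrast for Activin-A also gave 0 and 0, with 0.0214% of all genes. The difference between the times under IFN-γ was -0.67 for Bcl3 (95% interval -2.05 to 0.72), 0.25 for Nfkb1, -0.33 for Nfkb2, 0.18 for Rela, 0.36 for Relb, -0.42 for Nfkbia, 0.00 for Tnfaip2, 0.15 for Birc3 and, without the filter, 0.23 for Nfkbie and 0.25 for Tnfaip3. Under Activin-A it was -1.09 for Bcl3, 0.17 for Nfkb1, -0.05 for Nfkb2, 0.03 for Rela, -0.13 for Relb, 0.04 for Nfkbia, -0.11 for Tnfaip2, 0.26 for Birc3 and, without the filter, 0.26 for Nfkbie and 0.37 for Tnfaip3. Leaving out replicate 1 of Activin-A at 4 hrs gave -0.83 for Bcl3, 0.17 for Nfkb1, -0.06 for Nfkb2, 0.10 for Rela, -0.02 for Relb, 0.13 for Nfkbia, -0.11 for Tnfaip2 and 0.20 for Birc3, and none passed.

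The response of the 10 genes was set beside those of other genes of the pathway, which were a list of receptors, adaptors, kinases and inhibitors, all 40 of them in the table. This list was chosen with earlier results of these wells known, so its shares describe the list and do not test the pathway. With IFN-γ against untreated cells, 9 of 34 tested rose at 4 hrs and 6 of 32 at 12 hrs by edgeR, and none fell, beside 5.06% and 9.25% of all genes called. DESeq2 called 4 and 5 of this list. Among the genes called at 4 hrs, the 5 largest rises on the log2 scale were those of Tnfrsf1a, a TNF receptor, at 1.04, of the kinase Ripk1 that acts below it at 1.00, of the RNA sensor Tlr3 at 0.98, of Rnf31, the catalytic subunit of the linear ubiquitin ligase, at 0.80, and of the adaptor Myd88 at 0.80. Tnfrsf1a went from 74.0 to 152.9 CPM on average. At 12 hrs Rnf31 was at 1.29, Tnfrsf1a at 0.90, Myd88 at 0.82, Rbck1, a further subunit of that ligase, at 0.80 and the deubiquitinase Cyld at 0.52, with adjusted p-values of at most 0.0431 by edgeR. On top of Activin-A, 8 of 34 and 6 of 32 rose and none fell, against 4 and 4 called by DESeq2 and beside 6.07% and 9.62% of all genes called by edgeR. With Activin-A, either alone or on top of IFN-γ, 0 of these genes were called by edgeR or DESeq2 at either time, beside 1.64% and 2.41% of all genes called by edgeR with Activin-A alone at 4 hrs and 12 hrs and 0.810% and 1.03% on top of IFN-γ. Unadjusted p-values under 0.05 were found for 1 at 4 hrs and 3 at 12 hrs with Activin-A alone and for 0 at both times on top of IFN-γ, against 9.3% to 11.3% of all genes.

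In the average over the 4 IFN-γ comparisons 14 of 35 tested pathway genes rose and 0 fell, with 11 called by DESeq2, beside 17.0% of all genes called by edgeR. Nfkbiz, which like Bcl3 encodes an atypical nuclear IκB protein, had the largest called value, a log2 fold change of 1.29 ± 0.21 (SE, adjusted p of 8.17e-07). It went from 5.06 to 11.3 CPM with IFN-γ at 4 hrs, a log2 fold change of 1.07 that did not pass there (adjusted p of 0.154). Its 16 wells without IFN-γ held 1 to 13 counts, 5 of them at or under the floor of 3, and the 16 wells with it held 2 to 23. Nfkbiz thus passed the filter through groups in which it was high, and its average without the filter was 1.29 (adjusted p of 2.36e-07). At 12 hrs, where the filter removed it and the untreated wells averaged 2.75 counts, under the floor, its log2 fold change without the filter was 1.53 (95% interval 0.55 to 2.50, adjusted p of 0.034). The IκB inhibitor Nfkbib rose by 0.27 and the kinase regulator Ikbkg by 0.39. The median log2 fold change was 0.19 over the pathway list, 0.05 over the 8 NF-κB genes and -0.02 over all genes tested. Both the list and this averaged contrast were chosen with results of these wells known, so these medians are a description.

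A list of 38 genes described as NF-κB targets in other cells had 29 members in the table and 21 tested at each time. With IFN-γ 7 rose at 4 hrs, and 8 rose and 1 fell at 12 hrs by edgeR, beside 5.06% and 9.25% of all genes called, and DESeq2 called 7 and 8. Irf1, a transcription factor of the interferon response, was at a log2 fold change of 4.22 at 4 hrs and 3.96 at 12 hrs, the chemokines Cxcl10 at 2.46 and 2.81 and Ccl2 at 2.02 and 3.49, and Zfp36, which destabilises cytokine mRNA, at 0.98 and 1.08. Irf1 and Cxcl10 are also among the check genes of IFN-γ treatment. Il33, a cytokine of the IL-1 family, fell by 0.25 at 12 hrs. With Activin-A alone, Gadd45b, a stress-induced gene, rose by 0.90 and 0.93, while Il33 fell by 0.53 and 0.98. Ccl2 fell by 0.63 with Activin-A alone at 12 hrs and by 0.40 and 0.77 with both factors against IFN-γ at 4 hrs and 12 hrs. In this last comparison 1 target rose and 1 fell at 4 hrs, and 1 rose and 3 fell at 12 hrs by edgeR, beside 0.810% and 1.03% of all genes, and DESeq2 called 2 and 2. At 12 hrs the rise was that of Csf1, a growth factor of macrophages, at 0.33, and Il33 fell by 0.87 and Cxcl10 by 0.65. By edgeR, Activin-A alone thus gave 3 of 21 targets called at 4 hrs, 2 higher and 1 lower, beside 1.64% of all genes. At 12 hrs it gave 5 of 21, 3 higher and 2 lower, beside 2.41% of all genes. Of these rises, only that of Gadd45b is named here. DESeq2 called 2 and 3 of them, and both lists were chosen with earlier results of these wells known.

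**Figure D4:**
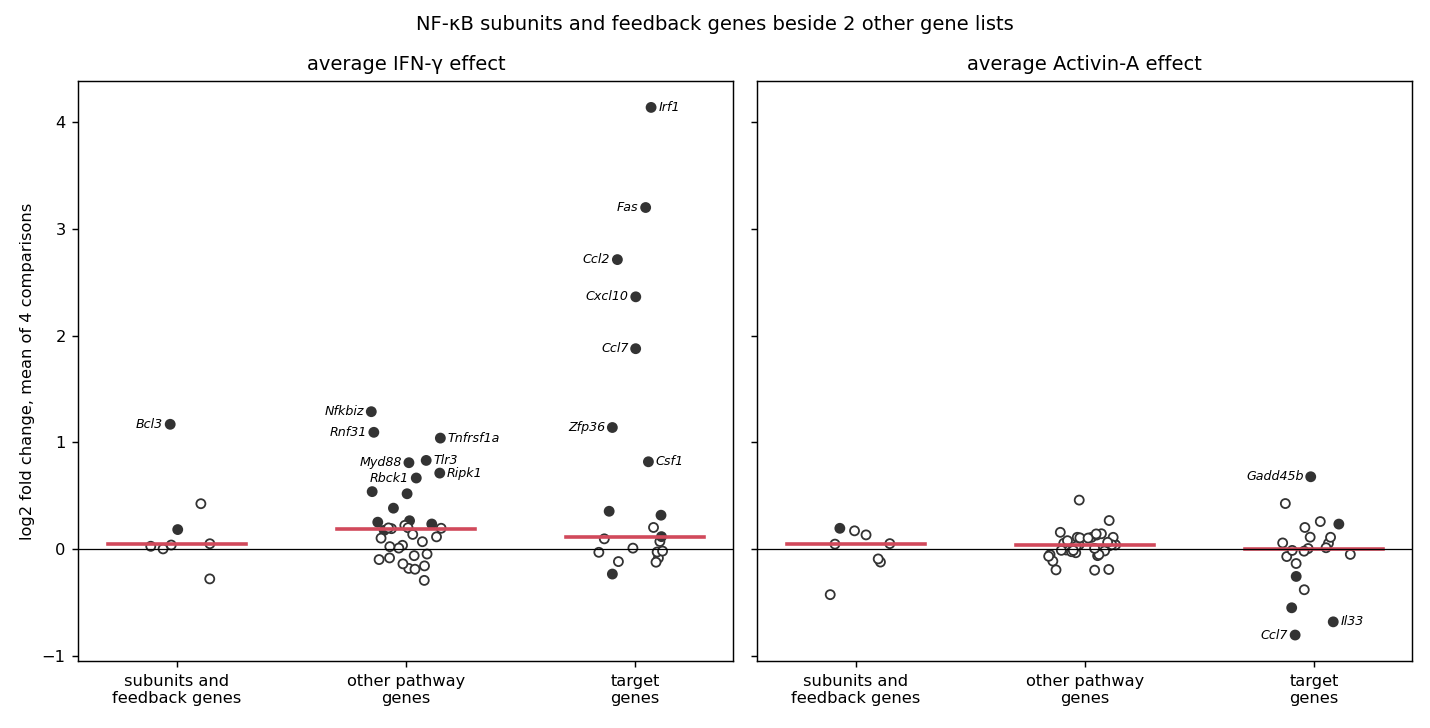
Log2 fold change averaged over the 4 IFN-γ comparisons (left) and the 4 Activin-A comparisons (right) for the tested NF-κB genes, the other pathway genes and the target genes. Filled points had an adjusted p under 0.05, red lines are medians of the points drawn, and called genes beyond 0.65 are named. Of the NF-κB genes Bcl3 alone lies above 1 with IFN-γ, and the point of Fas rests on 0 to 4 counts in the wells without IFN-γ.

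Likeness to a gene was described only where its 8 group means of log2 CPM spanned at least 1, which of the 8 tested genes was the case for Bcl3 alone. The 3 genes with the smallest root mean square difference from Bcl3 over the 8 group means, each centred on its own mean, were Them6 at 0.10, Ccdc25 at 0.12 and Pdzrn3 at 0.13 log2 units, with Pearson's r of 0.98, 0.97 and 0.96. By Pearson's r over the same 8 means the closest were Them6, Tor1aip2 and Idnk, the last 2 at root mean square differences of 0.305 and 0.624. The log2 CPM took a prior count of 2, which narrows the profile of a gene with few counts. Bcl3 spanned 1.25 on this scale, while its highest group mean CPM was 3.21 times its lowest. Its distances to genes with more counts depend on that setting. The means share wells and depth, and the order describes 8 points with no test.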

How the data were processed

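mRNA of 32 wells of YUMM3.3 cells was measured by BRB-seq. The deposited values are raw counts for each gene and well, whole numbers that the authors had not normalized, and all columns were matched to samples by their labels (0 were not). The submitters' processing notes name STAR 2.7.10b, featureCounts, DESeq2 1.36.0 and builds GRCm39 and mm39. The gene annotation and the handling of unique molecular identifiers are not given in the sources used here, so duplicate reads and reads shared by related genes stand as counted. Symbols came from GENCODE's mouse annotation, in which 12437 of 12451 identifiers had one.

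Counts were analysed in R 4.3.3 with edgeR 4.0.16: filterByExpr on the groups, TMM normalization, quasi-likelihood tests (glmQLFit, glmQLFTest) over the 16 wells of a time, or over 32 for time contrasts and averages, and Benjamini-Hochberg adjustment over all genes tested (adjusted p under 0.05). Promoters and figures were handled in Python 3.11.15. Alternatives were DESeq2 1.42.0 (Wald test, as in the study's methods), RLE normalization, no filter, at least 10 counts in every well, the replicate number as a block, all 32 wells or only the groups compared, and each well left out. The fits were tested on simulated data. The average IFN-γ and Activin-A effects were added after seeing the data.

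The 10 genes and the gene lists were chosen with earlier results of these data known. All 10 genes are given in every comparison by rule. From the pathway and target lists at most the 5 called genes with the largest absolute log2 fold change and at least 10 counts on average in either group are named by rule, and Nfkbib, Ikbkg, Fas and Il33 under IFN-γ were added after their values were seen. A gene of the target list is not reported here and is left out of the plot of gene lists.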

Additional observations from a re-analysis of the deposited data

Results flagged for a closer look

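In each of the 80 groups of 4 wells, 10 genes in 8 groups, the highest and the lowest well were compared with the others by Dixon's criterion. In 7 groups 1 well stood apart, where chance marks about 1 in 20. Nfkb2 in untreated cells at 4 hrs had a well at 68.31 CPM, with the next at 62.57. Relb with Activin-A at 4 hrs had a well at 33.65 CPM, above 27.21, and this was replicate 1, the well that also differed from its group over all genes. Tnfaip2 with Activin-A at 4 hrs had a well at 286.2 CPM, below 298.8.

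The other 4 cases were in genes with few counts. Nfkbie had a well at 6.206 CPM with Activin-A at 12 hrs and a well at 5.532 CPM with both factors at 12 hrs. Bcl3 had a well at 7.434 CPM with Activin-A at 12 hrs, with the next at 2.902, and a well at 2.161 CPM with IFN-γ at 12 hrs, with the next at 9.409. These 2 wells of Bcl3 held 6 and 2 counts.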

How the results depend on the processing

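Of 970 log2 fold changes of the 10 genes under alternatives, 956 stayed on their side of the threshold, 10 lost and 4 gained a call, and 0 called values changed sign. Most of the 970 belong to values that were never called, so the tally does not measure how stable the calls were. All 10 losses fell on a few called values. These were Bcl3 with IFN-γ at 4 hrs, Nfkb1 and Bcl3 with both factors against Activin-A at 4 hrs and 12 hrs respectively, and Nfkb2 averaged over Activin-A. The tally includes only the lowest and highest of the left-out fits, and no fits in which the filter removed the gene. Over all left-out fits, Nfkb2 averaged over Activin-A was called in 17 of 32. Nfkb1 with both factors against Activin-A at 4 hrs was called in 3 of 8, and Bcl3 with IFN-γ at 4 hrs in 5 of 8. For IFN-γ at 4 hrs, 1 gene was called, 0 with at least 10 counts in every well, with DESeq2 or with only the groups compared, and 0 to 2 with a well left out. For both factors against Activin-A at 4 hrs the count of 1 became 0 with DESeq2 and 0 to 1 with a well left out. It became 1 in place of 0 for IFN-γ at 12 hrs with only the groups compared, and for both factors against Activin-A at 12 hrs without the filter. For the averages it was 1 in place of 2 for IFN-γ with at least 10 counts in every well, and for Activin-A 0 in place of 1 without the filter or with DESeq2, and 0 to 1 with a well left out. The cause was not tested.

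Same-numbered wells of different groups had a mean r across genes of -0.000234 over 112 pairs. Wells with other numbers had a mean r of 8.07e-05 over 336 pairs. No pairing by number was seen, although these deviations include counting error, which could hide a weak one. With the replicate block, 0 genes in place of 1 were called for both factors against Activin-A at 4 hrs.

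Over all genes, DESeq2 called 84 with Activin-A at 4 hrs and 136 at 12 hrs, 44 and 61 with both factors against IFN-γ, 549 with both against Activin-A at 12 hrs, 284 for time in untreated cells, 1 for the Activin-A effect over time and 0 for the interaction at 12 hrs. Both factors against IFN-γ at 4 hrs gave 120 with only the groups compared and 47 to 72 with a well left out. The interaction gave 1 at 4 hrs without the filter or with all 32 wells, and 0 to 1 with a well left out. At 12 hrs it gave 8 without the filter and 0 to 6 with a well left out. With a well left out, time in untreated cells gave 302 to 374, the IFN-γ effect over time 35 to 54 and the Activin-A effect over time 0 to 3. Counts of 14 or fewer limit Bcl3, Nfkbie and Tnfaip3.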
